A study of Mus musculus with 15 samples.

Results

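Windows of 5 Mb tiling the 19 mouse autosomes were used to read gene expression by position, so that a shift of a whole chromosome or of a long segment would appear as neighbouring windows that move together. A window was taken where it held at least 5 protein-coding genes with a mean of 1 or more CPM (a gene's counts scaled to the same library total) over the libraries of an experiment. Windows start at position 1 of each chromosome of the build GRCm38, and a gene belongs to the window that holds its midpoint. Of 501 windows with a protein-coding gene in the table, 446 were members in experiment 1, with 12046 genes, and 445 in experiment 2, with 11182 genes, and 443 were members in both. The 55 windows below the limit in experiment 1 held 105 counted genes, and the 56 in experiment 2 held 103. Members were chosen by expression level, and chromosomes 4, 7 and 12 were picked out because of measured differences in these libraries, so their values are a description and carry no test. Windows with exactly 5 genes, just inside the limit, ran in experiment 1 from -0.56 to 1.79 (median 0.50, 8 windows), and those with 4 genes, just outside, from -2.46 to 0.74 (median -0.06, 9 windows).

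Most genes have a product whose RNA follows the number of gene copies, so a chromosome that is lost or gained in a cell population tends to lower or raise many of its genes a little rather than a few genes a lot. Cultured mouse cells often become aneuploid as they are passaged or transformed. Expression by position reads the dose of RNA, not of DNA, and a regional change of transcription or of cell composition gives the same kind of shift. No DNA measurement was used here.

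The study concerns YAP1, a transcriptional coactivator restrained by the Hippo kinases, EWS::FLI1, a fusion protein that acts as a transcription factor in Ewing sarcoma, and the growth factor IGF-1 in bone mesenchymal stem cells. All 15 libraries have the cell type label MSCLCs, which the labels do not spell out. Experiment 1 held 3 libraries with the genotype label MSC (202, 234 and 237; the design text calls these WT) and 4 with the label EFPrx1MSCLC (219, 221, 225 and 229). Experiment 2 held 2 libraries with the label EF, 2 with ha and 4 with hr (1-1, 1-2, 2-1 and 2-2), which the design text names EFPrx1, ha-EFPrx1 and hr-EFPrx1, and all 8 titles carry the number 221. The titles of ha and hr also hold Combi, followed by T in ha and uns in hr, and those of EF hold none of these. The labels explain neither these terms nor ha and hr. They state no treatment, age or strain, and do not say whether libraries were separate cultures or animals, so the spread between them may be technical. Libraries held 14906180 to 26833876 counts in experiment 1 and 11195371 to 16378368 in experiment 2. All 10 mesenchymal stromal markers checked, among them Prrx1, Col1a1 and Pdgfra, were at 1 CPM or more in every library. Their sum differed between groups, with 11100 to 16700 CPM in MSC and 2930 to 8820 CPM in EFPrx1MSCLC. It was 17200 and 16400 CPM in ha 1 and 2, 8590 and 8700 CPM in EF 1 and 2 and 7690 to 8260 CPM in hr.

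Several library properties moved with the groups. The 16 markers of macrophages and other blood cells, such as Ptprc, Cd68 and Csf1r, summed to 12200 to 32100 CPM in the MSC libraries, with all 16 at 1 CPM or more. They summed to 567 CPM in EFPrx1MSCLC 219 and to 75.9 to 93.4 CPM in the other EFPrx1MSCLC libraries, where 5 to 7 reached 1 CPM and 1 library had 1 marker at 0. In experiment 2 they summed to 18.3 to 71.6 CPM. In bulk RNA fewer cells of a type and less RNA per cell cannot be told apart. The 8 proliferation markers summed to 108 to 289 CPM in MSC, 75.5 CPM in EFPrx1MSCLC 225 and 987 to 1260 CPM in the other 3. In experiment 2 they summed to 1690 and 1680 CPM in EF 1 and 2 and to 401 and 790 CPM in ha 1 and 2. The sums were 976 and 963 CPM in hr 1-1 and 1-2 and 1450 and 1480 CPM in hr 2-1 and 2-2. Differences within the EF pair, and within the hr pairs that share a first title number, lay close to counting noise (squared differences 1.38, 1.28 and 1.17 times those of counting noise, against 8.59 to 125 within the groups of experiment 1), so these may be repeat libraries of 1 sample.

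The value of a window is the median over its genes of the difference of group means in log2 CPM, minus the same median over all autosomal genes counted. A library's value is the same median for that library relative to the mean of the reference group. A window was called shifted where its value was 0.5 or more in size and the libraries of the groups did not overlap, and a chromosome where its value was 0.2 or more in size under the same condition. Between EFPrx1MSCLC and MSC, 47 of 446 windows (10.5%) were shifted higher and 38 (8.52%) lower, and 5 of 19 chromosomes (26.3%) were shifted. Chromosome 4 held 16 of the windows shifted lower and chromosome 7 held 14. Of 14596 genes tested, edgeR's quasi-likelihood test called 1124 (7.7%) higher and 1763 (12.1%) lower at a Benjamini-Hochberg adjusted p under 0.05. Scaling by library totals without subtracting the autosome median, which was then 0.30 against 0.05 with TMM, gave 124 windows shifted higher and 13 lower, so directions are relative to the autosome median. Without MSC 202, 84 windows were shifted higher and 51 lower, and 5087 genes were called. Without MSC 234 or 237 edgeR called 1275 and 1219 genes, and without EFPrx1MSCLC 221 or 229 it called 1673 and 1580.

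Chromosome 4 was lower in all 4 EFPrx1MSCLC libraries. Relative to the mean of MSC its median was -0.42 in library 219, -0.80 in 221, -0.70 in 225 and -0.87 in 229, against -0.05, 0.03 and 0.02 in MSC 202, 234 and 237. The groups did not overlap. The group value was -0.70 over 762 genes, of which 77.6% lay below the autosome median. The middle 50% of its genes ran from -1.35 to -0.06, so the shift was one of most genes and not of a few. Of 27 windows, 26 were below 0. edgeR called 182 of 760 genes lower (23.9%) and 13 higher (1.71%), against 12.1% and 7.7% over all genes tested. This is read here as a description because the chromosome was picked for this difference. Split into 3 classes by expression level, a split chosen after its values were seen, the genes had values of -0.86 (low), -0.51 (middle) and -0.76 (high).

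**Figure D1:**
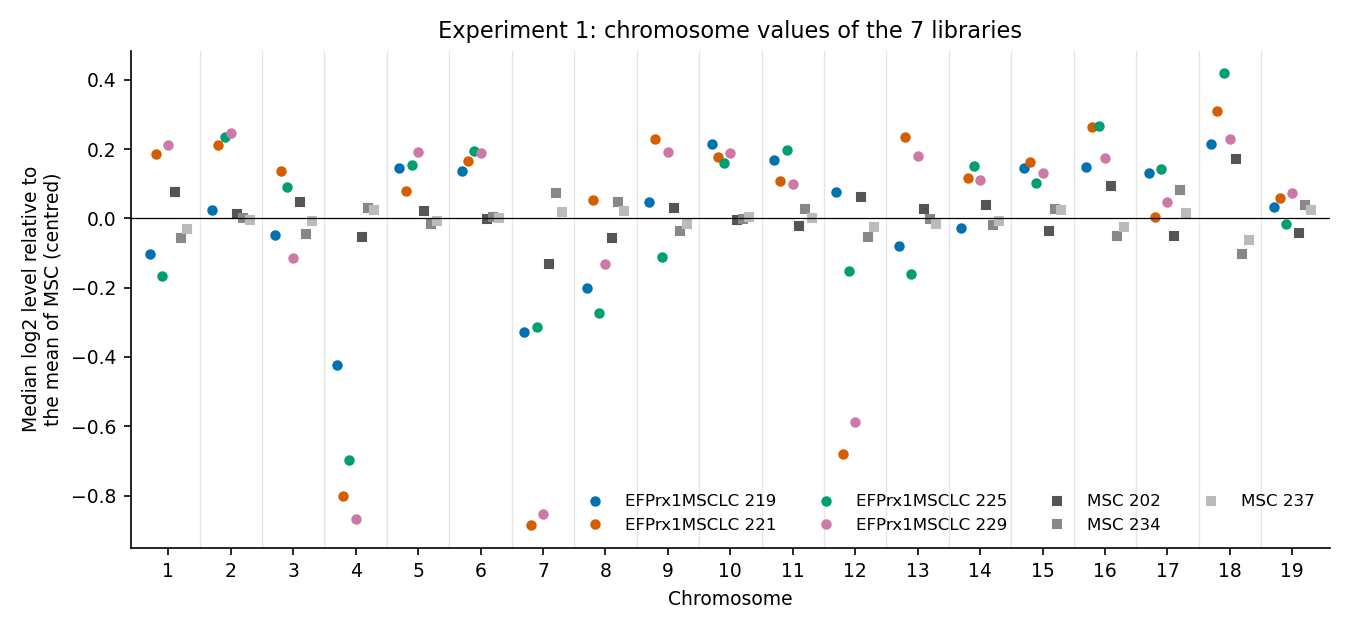
Chromosome values of the 7 libraries of experiment 1. Each point is the median log2 level of a chromosome's genes in 1 library relative to the mean of MSC, minus the library's autosome median; circles are EFPrx1MSCLC, squares are MSC. Chromosome 4 is low in all 4 EFPrx1MSCLC libraries (-0.42 to -0.87), chromosome 7 is lowest in 221 and 229, and chromosome 12 is low in 221 and 229 but at 0.07 in 219.

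The distal segment of chromosome 4 was below MSC in all 4 libraries, by less in 219 than in the others. A run, here at least 3 neighbouring windows on one side that are each 0.3 or more in size, covered 14 windows at chr4:85000001-160000000 in the group difference (-1.17 to -0.40, median -0.80). In EFPrx1MSCLC 225 the same 14 windows formed a run from -1.46 to -0.41. Its proximal windows lay between -0.87 and 0.86 and above those of 221 and 229 throughout, and the 249 genes before position 85000001 had a median of -0.11, against -0.92 for the 513 genes from there on. In 221 both sides were low, at -0.65 before and -0.92 after. Library 229 gave -0.71 and -0.92. In 219 the values were -0.21 and -0.49, with a run of 11 windows at chr4:100000001-160000000 (-0.88 to -0.33). It lay above 221 in 9 windows at chr4:100000001-150000000, by 0.31 to 0.46. In the first distal window, at 85000001, 225 was at -0.41 and the other 3 between -0.09 and 0.08. The MSC libraries ran from -0.05 to 0.05 before that position and from -0.11 to 0.06 after it. The boundary is the start of the run in 225 and was chosen after its values were seen. With only the genes that were also counted in experiment 2, whose libraries had little blood-marker RNA, the medians after the boundary were -0.51 in 219, -0.91 in 221, -0.95 in 225 and -0.95 in 229.

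Chromosome 7, the home of the imprinted Igf2 and H19 genes and of Ccnd1, was lower in the EFPrx1MSCLC libraries, by amounts that differed between them. Its median was -0.89 in 221 and -0.85 in 229, and -0.33 in 219 and -0.31 in 225, against -0.13, 0.07 and 0.02 in the MSC libraries. All 4 lay below the MSC range. The group value was -0.60 over 943 genes, 74.2% of them below the autosome median, and 23 of 28 windows were below 0. In 221, runs covered 7 windows at chr7:15000001-50000000 (-1.47 to -0.68), 8 windows at chr7:70000001-110000000 (-1.33 to -0.43) and 6 windows at chr7:115000001-145000000 (median -0.88). Library 229 had the first of these (-1.27 to -0.73) and the second (-1.16 to -0.38). The 3 member windows between these, at chr7:55000001-70000000, lay between -0.24 and 0.99 in the 4 libraries, so the lower expression did not cover the whole chromosome. By the edgeR test 190 of 936 genes (20.3%) were called lower and 24 (2.56%) higher, against 12.1% and 7.7% over all genes tested. These counts are a description too, because chromosome 7 was picked for measured differences in these libraries.

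Chromosome 12 separated the EFPrx1MSCLC libraries from each other rather than from MSC. Its median was 0.07 in 219, -0.68 in 221, -0.15 in 225 and -0.59 in 229, against 0.06, -0.05 and -0.03 in MSC 202, 234 and 237. Library 219 lay above all 3 MSC libraries, so the chromosome does not count as shifted, although the group value was -0.32 over 431 genes. Without 219 the value was -0.48. Of 22 windows, 18 were below 0 and 3 were shifted lower. edgeR called 57 of 429 genes (13.3%) lower, close to the 12.1% over all genes tested, and 23 (5.36%) higher.

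**Figure D2:**
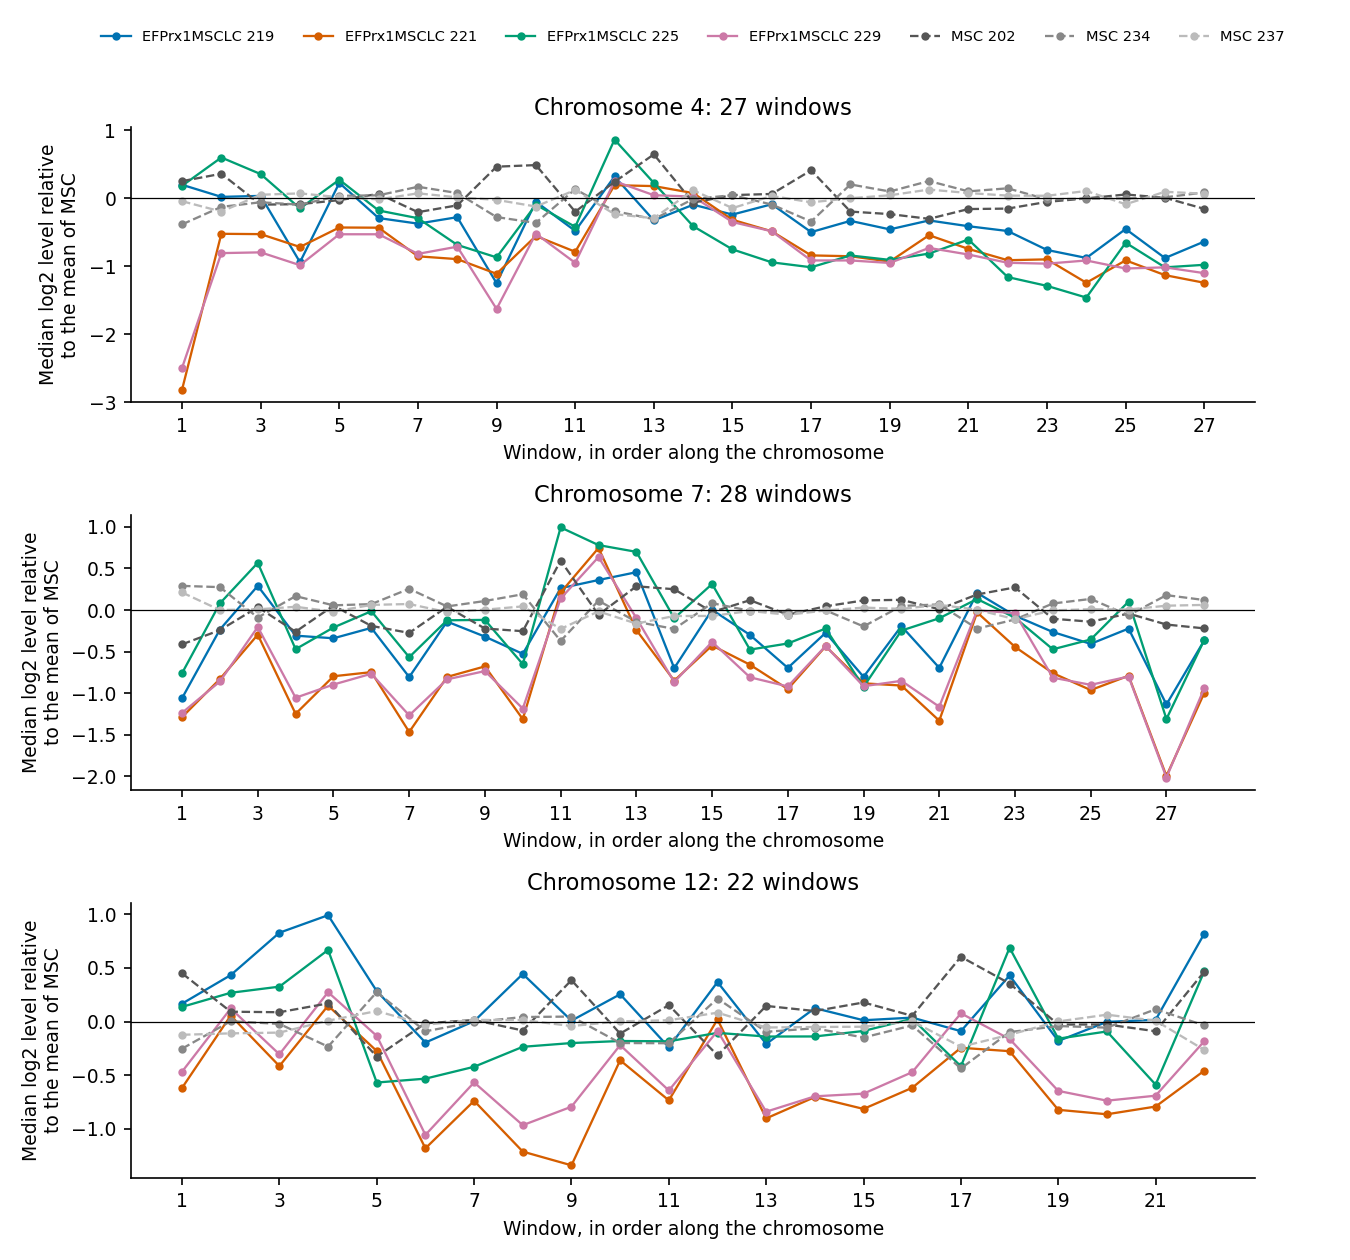
Window values along chromosomes 4, 7 and 12 in experiment 1. Each point is the median log2 level of a window's genes in 1 library relative to the mean of MSC, minus the autosome median, and windows are in order along the chromosome (27, 28 and 22 windows). On chromosome 4 library 225 lies above 221 and 229 in the first 13 windows and at -0.41 or lower from there on; on chromosome 12 libraries 221 and 229 lie mostly below 219.

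Pairs of libraries within 1 group need no reference to the mean of MSC. The genes counted and the TMM factors come from all libraries of an experiment, so genes counted through MSC alone stay in the medians. Markers still moved with some pairs: 219 held 567 CPM of the blood markers against 75.9 to 93.4 CPM in the other 3, and 225 held 75.5 CPM of the proliferation markers against 987 to 1260 CPM, and their part in the pair differences was not tested. Between 219 and 221, 18 neighbouring windows at chr12:20000001-120000000 were all higher in 219, by 0.59 to 1.19, and 10 windows at chr7:1-50000000 by 0.48 to 0.78. Between 219 and 229 the same 18 windows of chromosome 12 differed by 0.44 to 0.96. Over whole chromosomes, 219 minus 221 was 0.72 on chromosome 12, 0.59 on chromosome 7 and 0.38 on chromosome 4, and only 12.5% of the genes of chromosome 12 went the other way. Libraries 221 and 225 differed by -0.62 on chromosome 7 and -0.51 on chromosome 12. On the proximal part of chromosome 4 the difference formed a run of 8 windows at chr4:1-50000000 (-1.29 to -0.38). Chromosome 13, which was not among those picked, showed a run of 9 windows at chr13:75000001-120000000 that were higher in 221 than in 225 by 0.30 to 1.03. Libraries 221 and 229 differed least of the EFPrx1MSCLC pairs, with no window of 446 at 0.5 or more and a largest difference of 0.33, though chromosome 3 was higher in 221 by 0.22, with 18% of its genes lower.

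The share of the variance of window values that lay between chromosomes shows how far such differences follow whole chromosomes. It was 53.3% for 219 minus 221, 48.3% for 219 minus 229, 46.0% for 221 minus 225 and 45.0% for 225 minus 229. For 221 minus 229 it was 53.3% too, at an SD over windows of 0.11. For 219 minus 225 it was 13.6%. Among the MSC pairs it was 4.51% to 6.22%, although MSC 202 and 234 differed over windows with an SD of 0.38, while the EFPrx1MSCLC pairs other than 221 and 229 had SDs of 0.34 to 0.38. Differences between MSC libraries thus lay mostly within chromosomes. Neighbouring windows went together accordingly: the correlation between neighbours was 0.51 for 219 minus 221 and 0.02 for MSC 202 minus 234, each over 427 pairs of neighbouring windows that share the 2 libraries.

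**Figure D3:**
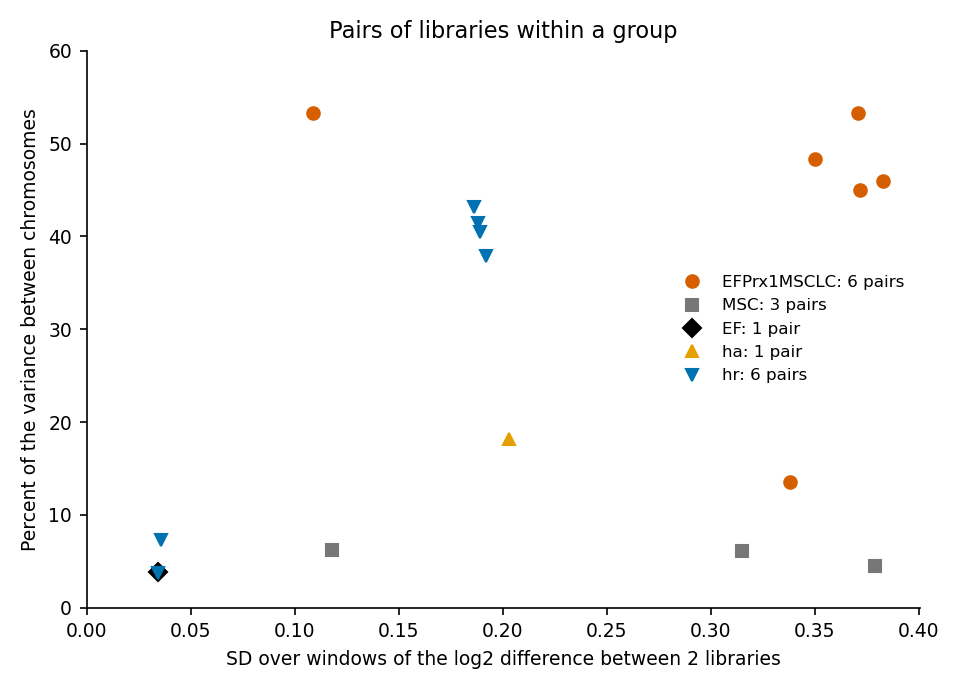
Differences between 2 libraries of the same group. The x axis gives the SD over windows of the log2 difference, the y axis the percent of its variance that lies between chromosomes; each point is 1 pair. Of the 6 EFPrx1MSCLC pairs, 5 lie at 45.0% to 53.3%, while the 3 MSC pairs lie at 4.51% to 6.22% with SDs up to 0.38.

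Genes that the window rule left out gave a second view of the same chromosomes. Over 1073 autosomal genes that are not protein-coding, the 57 on chromosome 4 had a group value of -0.61, with -0.08 in 219, -0.72 in 221, -0.71 in 225 and -0.60 in 229, against -0.29, 0.17 and 0.10 in the MSC libraries. Library 219 thus lay inside the MSC range for these genes. The 66 on chromosome 12 gave -0.78 in 221, -0.57 in 229, -0.14 in 219 and -0.16 in 225, against -0.07 to 0.04 in MSC. The 82 on chromosome 7 gave only -0.26 in 221 and -0.19 in 229, against -0.15 to 0.32 in MSC, and the groups overlapped. Many of these genes are pseudogenes or antisense genes whose reads may not be separated from their coding partners.

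Chromosomes 10, 16 and 18 were shifted higher by small amounts, 0.21, 0.21 and 0.31. On chromosome 18 the EFPrx1MSCLC libraries were at 0.21, 0.31, 0.42 and 0.23, and the MSC libraries at 0.17, -0.10 and -0.06. Window values in experiment 1 went down with the GC content of the windows' transcripts (Spearman rho -0.31 over 446 windows that share the 7 libraries), a property that library preparation can affect. With a trend on GC removed in each library, an alternative added after seeing the data, chromosomes 4 and 7 stayed shifted lower at -0.65 and -0.48. Chromosome 12 was then at -0.39, with 0.07 in 219, -0.80 in 221, -0.25 in 225 and -0.63 in 229. Chromosomes 16 and 18 fell short of the limit at 0.15 and 0.16, while chromosomes 11 and 15 passed it at 0.21 and 0.23.

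The 5 shifted windows with the highest values in EFPrx1MSCLC lay outside chromosomes 4, 7 and 12. The highest was chr10:100000001-105000000 with 1.79 over 5 genes, where the EFPrx1MSCLC libraries were at 1.30, 2.12, 1.88 and 1.95, and MSC at 0.74, -0.56 and -0.30. Its called gene of highest level was Kitl, which encodes the ligand of the KIT receptor and rose by 2.55 ± 0.75 (log2, SE), with 12.5 ± 7.05 CPM in MSC and 73.6 ± 62.1 CPM in EFPrx1MSCLC (SD, n = 3 and 4; edgeR adjusted p = 0.0495). The neighbour chr10:105000001-110000000 followed with 1.42 and holds Ppp1r12a, the targeting subunit of myosin phosphatase, which rose by 1.22 ± 0.30 (edgeR adjusted p = 0.0285). Next came chr13:1-5000000 with 1.14, chr16:25000001-30000000 with 1.11 and chr15:60000001-65000000, the window of Myc, with 1.02. The highest called gene there was Asap1, an ARF GTPase-activating protein gene, which rose by 2.00 ± 0.44 (edgeR adjusted p = 0.0203), while Myc itself did not pass. The window on chromosome 13 was at -0.01 without EFPrx1MSCLC 221 and at 0.02 without 229, although all 4 EFPrx1MSCLC libraries lay above MSC (0.51 to 0.93 against -0.14 to 0.24). Its 8 genes were split, with 37.5% below the autosome median and quartiles of -0.53 and 1.52.

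Of the 5 lowest shifted windows, 3 were on chromosome 4 and 1 on chromosome 7. The lowest of all, chr3:15000001-20000000 at -3.79 over 11 genes, holds a cluster of Sirpb1 genes, which encode receptors of myeloid cells. It was at 0.08 with only the genes also counted in experiment 2, 0.11 at a mean CPM of 5 or more and 0.09 at 10 or more. Next was chr7:135000001-140000000 at -1.76 over 15 genes, with -1.14, -1.996, -1.31 and -2.01 in the EFPrx1MSCLC libraries, against -0.17 to 0.18 in MSC. In it Bnip3, a mitophagy receptor gene, fell by 1.73 ± 0.32, with 326 ± 50.4 CPM in MSC and 98.1 ± 35.7 CPM in EFPrx1MSCLC (edgeR adjusted p = 0.0105), and Adam8, a metalloprotease gene of leukocytes, by 4.32 ± 0.90 (edgeR adjusted p = 0.0165). On chromosome 4 the windows were chr4:50000001-55000000 at -1.25, chr4:140000001-145000000 at -1.17 and chr4:135000001-140000000 at -1.12. The second of these had 88.9% of its 27 genes below the autosome median, and in it Pdpn, the podoplanin gene, fell by 5.40 ± 0.56, with 596 ± 46.1 CPM in MSC and 14.1 ± 9.24 CPM in EFPrx1MSCLC (edgeR adjusted p = 0.00189). In the last, 87.3% of 55 genes were below the autosome median, among them C1qb, a complement gene of macrophages and one of the blood markers above, which fell by 6.84 ± 1.69 (edgeR adjusted p = 0.0301). The part of blood-marker RNA in these windows was not tested beyond the values with fewer genes.

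A single gene can leave its window far behind, and the windows of Cdkn2a and Yap1 show this. Cdkn2a, the source of the cell cycle inhibitors p16 and ARF, was at 1.59, 0, 2.05 and 0.173 CPM in EFPrx1MSCLC 219, 221, 225 and 229 and at 43.7, 116 and 109 CPM in MSC. It fell by 6.59 ± 1.19 (edgeR adjusted p = 0.00998). The window around it, chr4:85000001-90000000 with 16 genes, had a group value of -0.53, but its libraries were at -0.09, 0.08, -0.41 and 0.03 and overlapped MSC (-0.06 to 0.12). These library medians lie above the group value because a different gene is in the middle for each. Its neighbour Mtap, a methionine salvage gene next to Cdkn2a, was at 136, 129, 45.7 and 138 CPM in EFPrx1MSCLC and at 44.1, 55.8 and 66.7 CPM in MSC (edgeR adjusted p = 0.116). In experiment 2 Cdkn2a had no count in any library, which allows up to 0.268 CPM in the shallowest one. Yap1 lies in chr9:5000001-10000000 and rose by 1.09 ± 0.30 in EFPrx1MSCLC (edgeR adjusted p = 0.0429), while its window was at 0.21 and not shifted.

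In experiment 2, hr differed from EF by small shifts that ran the length of chromosomes. Of 445 windows, 9 (2.02%) were shifted higher and 3 (0.674%) lower, and 4 of 19 chromosomes (21.1%) were shifted. edgeR called 543 of 13998 genes (3.88%) higher and 430 (3.07%) lower. Gene calls changed with how close libraries were counted. With them summed, or without either EF library, the edgeR calls did not hold. EF is then 1 sample, assumed to vary like the other groups. DESeq2 called 1973 genes on the separate libraries. Without 1 hr library edgeR called 332 to 379, and 4 windows were shifted without hr 2-1 and 5 without 2-2. Chromosome 18 was highest, at 0.29 in hr 1-1, 0.23 in 1-2, 0.67 in 2-1 and 0.66 in 2-2, against 0.00 in both EF libraries. The group value was 0.45 over 312 genes, with 13.8% of genes below the autosome median and none of its 15 windows below 0. A run of 14 windows covered chr18:5000001-85000000 (0.32 to 0.60). In hr 2-1 all 15 windows lay between 0.47 and 0.98 and in 2-2 between 0.48 and 1.02. The 4 hr libraries were thus not of one level on this chromosome.

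**Figure D4:**
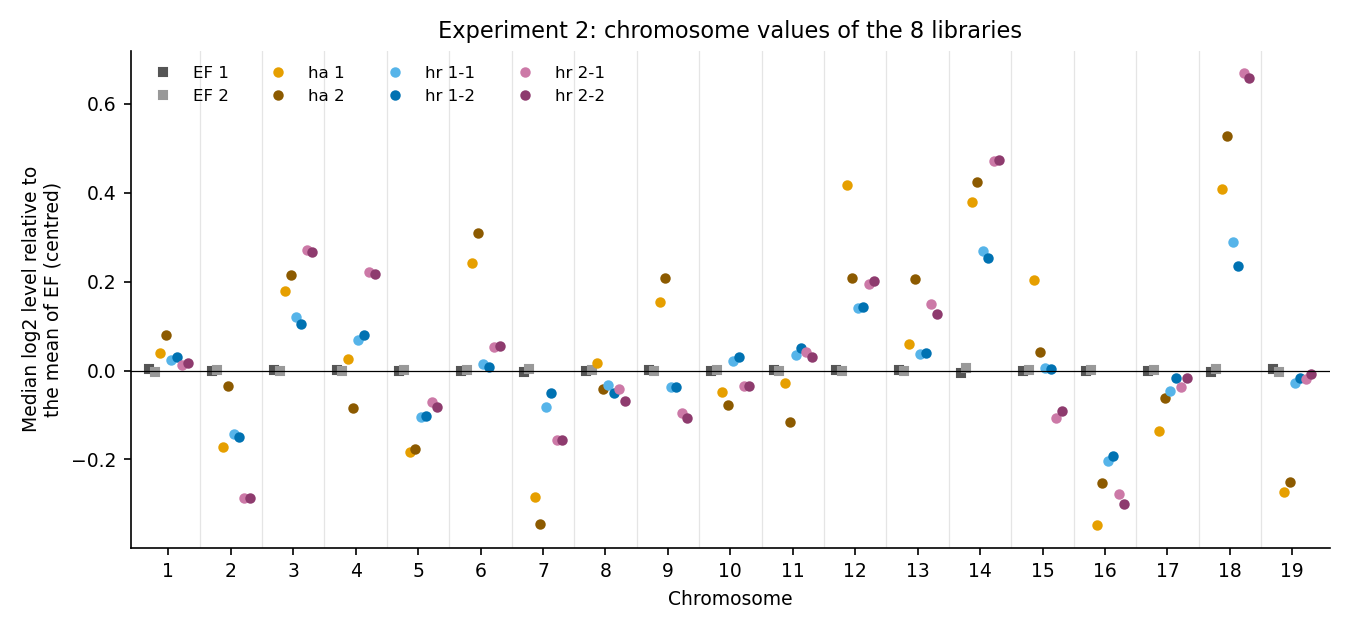
Chromosome values of the 8 libraries of experiment 2. Each point is the median log2 level of a chromosome's genes in 1 library relative to the mean of EF, minus the library's autosome median; squares are EF, circles are ha and hr. Chromosome 18 reaches 0.67 in hr 2-1 and chromosome 14 is higher in all ha and hr libraries (0.25 to 0.47), while chromosome 16 is lower in all 6 (-0.35 to -0.19).

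Chromosome 14 was the other chromosome shifted higher, at 0.27, 0.25, 0.47 and 0.47 in hr 1-1, 1-2, 2-1 and 2-2 and 0.38 as group value over 385 genes, with 14.8% of genes below the autosome median. Its runs covered 6 windows at chr14:5000001-35000000 (0.30 to 0.60) and 7 windows at chr14:65000001-125000000 (0.38 to 0.54). The 1 window of 18 below 0 was chr14:40000001-45000000, at -0.09 and -0.29 in hr 1-1 and 1-2 and -0.69 and -0.76 in 2-1 and 2-2; both ha libraries were at -0.97 there. Chromosome 16 was lower at -0.20, -0.19, -0.28 and -0.30 and chromosome 2 at -0.14, -0.15, -0.29 and -0.29. Chromosomes 4, 7 and 12 were at 0.14, -0.11 and 0.18, under the limit of 0.2, and chromosome 3 was at 0.18, with all hr libraries above EF on 3, 4 and 12. On chromosome 18, 41 of 312 genes (13.1%) were called higher and 5 (1.60%) lower, and on chromosome 14, 60 of 385 (15.6%) and 4 (1.04%). Over all genes tested the shares were 3.88% and 3.07%. Differences of hr 2-1 and 2-2 from EF were those most ordered by chromosome in these data, with 67.0% and 65.2% of the variance of window values between chromosomes. Genes that are not protein-coding did not follow as clearly: the 39 on chromosome 18 had a value of 0.05 and the 37 on chromosome 14 of 0.17.

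Within hr, the libraries with the first title number 1 differed from those with 2 by chromosome as well. The pairs across these numbers had 37.9% to 43.2% of their variance between chromosomes and an SD over windows of 0.19. Proliferation markers also differed across them, at 976 and 963 CPM in 1-1 and 1-2 and 1450 and 1480 CPM in 2-1 and 2-2. The part of these markers in the pair differences was not tested. Chromosome 18 was lower in 1-1 than in 2-1 by a median of 0.36, with 82.1% of its genes lower. Between 1-2 and 2-1, 7 windows at chr18:50000001-85000000 were lower in 1-2, from -0.77 to -0.32. Pairs with the same first number had an SD of 0.04 and 0.03, with a largest difference of 0.25. The EF pair had an SD of 0.03 and no window above 0.24. With an EF spread this small, the condition that libraries do not overlap is easily met in comparisons with EF.

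**Figure D5:**
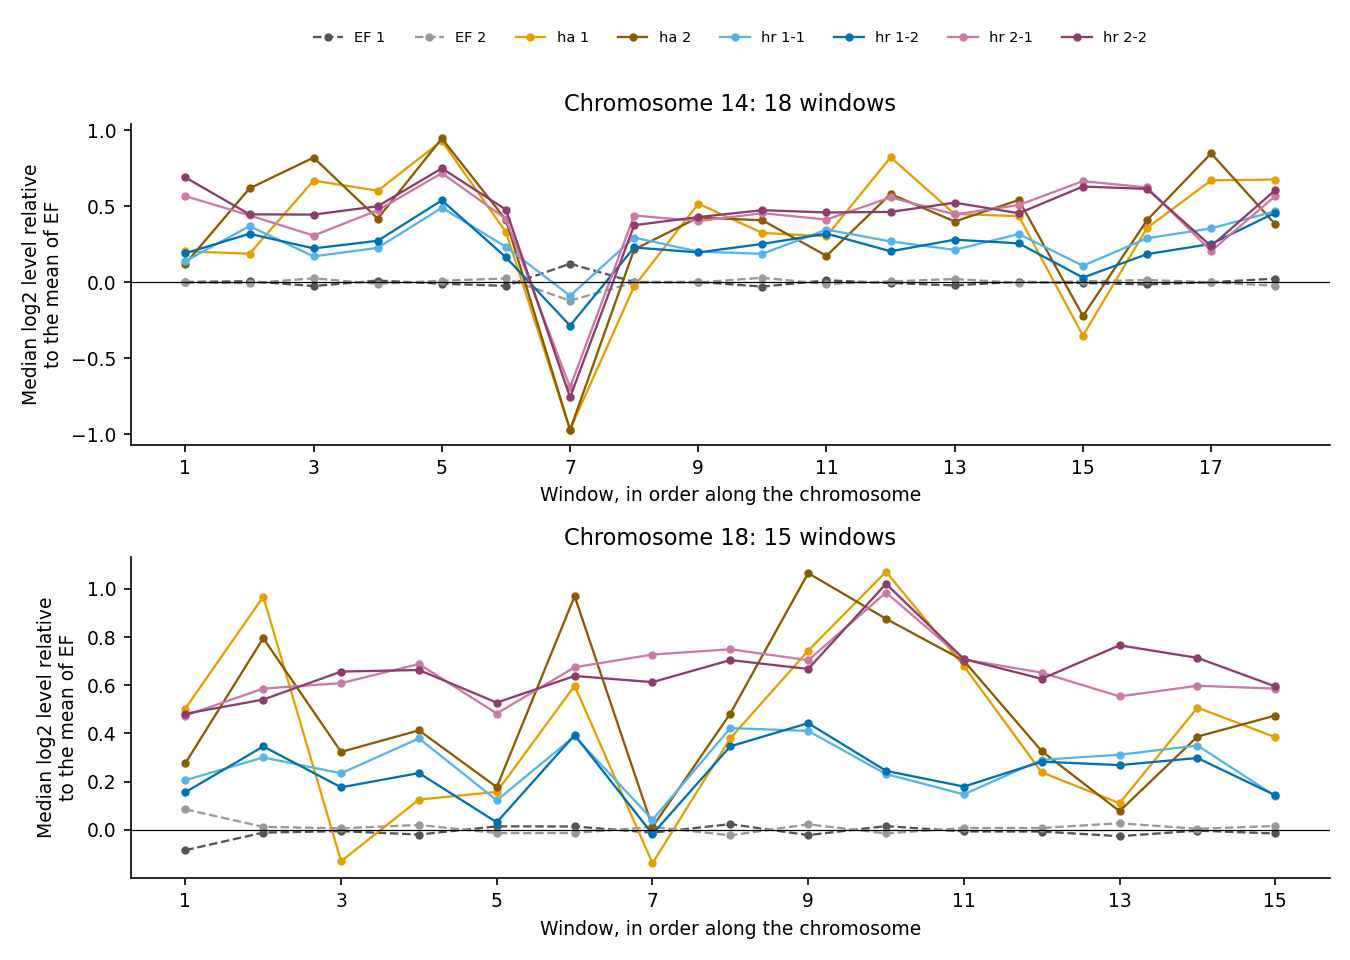
Window values along chromosomes 14 and 18 in experiment 2. Each point is the median log2 level of a window's genes in 1 library relative to the mean of EF, minus the autosome median, with windows in order along the chromosome (18 and 15 windows). On chromosome 18 hr 2-1 and 2-2 stay between 0.47 and 1.02 in every window, hr 1-1 and 1-2 lie below them, and the ha libraries vary more from window to window.

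Between ha and EF more windows were shifted and less evenly along chromosomes. Of 445 windows, 34 (7.64%) were shifted higher and 21 (4.72%) lower, with 8 of 19 chromosomes (42.1%) shifted, and edgeR called 3214 of 13998 genes (23.0%) higher and 2747 (19.6%) lower. With close libraries summed 736 genes were called, with 3075 called without EF 1 and 3106 without EF 2. Chromosomes 18 and 14 were highest at 0.47 (0.41 and 0.53 in ha 1 and 2) and 0.45 (0.38 and 0.42). On chromosome 14, 42.6% of genes were called higher and 6.75% lower. Genes of low level carried the largest values: by level class chromosome 18 was at 1.13 (low), 0.41 (middle) and 0.22 (high) and chromosome 14 at 0.75, 0.40 and 0.29. On chromosome 7 it was the high class that lay lowest, at -0.51, against -0.06 in the low class. Chromosome 12 was at 0.35, 0.35 and 0.13, and chromosome 4, which was not shifted, at 0.12, -0.05 and -0.16. The high class thus lay lowest on every chromosome split this way, shifted or not. No value per class over all autosomes is given beside these. The 39 genes on chromosome 18 that are not protein-coding were at -0.17, with 0.11 in ha 1 and -0.22 in ha 2. Chromosome 12 was at 0.31, with 0.42 in ha 1 and 0.21 in ha 2. Chromosome 7 was at -0.30, with -0.28 and -0.35, and a run of 7 windows at chr7:110000001-145000000 (-0.76 to -0.31). Of 27 windows on chromosome 7, 26 were below 0. Chromosome 4 was at -0.04 and not shifted. Chromosomes 3 and 6 were higher at 0.21 and 0.25, and 16 and 19 lower at -0.28 and -0.26. The ha and hr comparisons share the EF libraries, so a feature of EF enters both. Proliferation markers moved with ha and EF too (401 and 790 CPM against 1690 and 1680 CPM), and their part was not tested.

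The highest window of ha against EF was chr6:100000001-105000000 at 2.26 over 5 genes. Its genes were split, with 40% below the autosome median, 2 called higher and 1 called lower. In it Gxylt2, a xylosyltransferase gene, rose by 2.66 ± 0.27, with 42.6 ± 2.93 CPM in EF and 270 ± 112 CPM in ha (SD, n = 2 and 2; edgeR adjusted p = 0.000482). The next were chr15:65000001-70000000 at 1.20, chr9:90000001-95000000 at 1.08, chr14:25000001-30000000 at 1.07 and chr18:50000001-55000000 at 1.01. The window on chromosome 14 was named for its high value, so its calls are a description. Against 23.0% higher and 19.6% lower over all genes tested, 11 of its 19 genes were called higher and 0 lower. Among them Il17rd, an inhibitor of FGF signalling, rose by 4.41 ± 0.29, with 11.3 ± 1.59 CPM in EF and 242 ± 89.2 CPM in ha (edgeR adjusted p = 0.000129). In the window on chromosome 18, Lox, the collagen cross-linking lysyl oxidase gene, rose by 2.22 ± 0.62, with 268 ± 1.66 CPM in EF and 796 and 1690 CPM in ha 1 and 2 (edgeR adjusted p = 0.024). The lowest were chr17:40000001-45000000 at -1.17, chr19:15000001-20000000 at -1.05 and chr2:1-5000000 at -1.03. On chromosome 19 Psat1, an enzyme gene of serine synthesis, fell by 1.42 ± 0.18 (edgeR adjusted p = 0.000938). On chromosome 2, Nmt2, a protein myristoyltransferase gene, fell by 2.11 ± 0.22 (edgeR adjusted p = 0.000537). The EF libraries may be repeats of the same sample, so the SDs in EF may not measure the spread between samples.

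The highest shifted windows of hr against EF were smaller, chr3:40000001-45000000 at 0.63, chr14:25000001-30000000 at 0.60, chr18:55000001-60000000 at 0.60, chr4:90000001-95000000 at 0.58 and chr18:45000001-50000000 at 0.58. In that of chromosome 14 the hr libraries were at 0.49, 0.54, 0.72 and 0.75. Zmiz1, a transcriptional coactivator gene, rose in it by 0.91 ± 0.17, with 86.9 ± 0.71 CPM in EF and 164 ± 13.1 CPM in hr (edgeR adjusted p = 0.0257). The 3 windows shifted lower were chr16:25000001-30000000 at -0.71, chr2:1-5000000 at -0.55 and chr15:60000001-65000000, which holds Myc, at -0.51. In the first of these Opa1, a GTPase gene of mitochondrial fusion, fell by 0.39 ± 0.09, with 167 and 166 CPM in EF and 130, 133, 124 and 123 CPM in hr (edgeR adjusted p = 0.0445). The EF libraries may be repeats of the same sample, as may hr libraries that share a first title number. The SDs and adjusted p-values of Zmiz1 and Opa1 may then not measure the spread between samples.

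Between hr and ha, 12 of 445 windows (2.7%) were shifted higher and 13 (2.92%) lower, and 2 of 19 chromosomes (10.5%). edgeR called 2505 of 13998 genes (17.9%) higher and 3012 (21.5%) lower, and fewer with close libraries summed. The hr libraries that share a first title number may be repeats of the same sample. The SDs and adjusted p-values given below may then not measure the spread between samples. The shifted chromosomes were 9 at -0.27 (-0.19, -0.20, -0.32 and -0.34 in the hr libraries) and 19 at 0.25 (0.23, 0.21, 0.24 and 0.23). Chromosomes 4, 7 and 12 were at 0.16, 0.18 and -0.17. With the trend on GC removed, chromosomes 7 and 12 passed the limit as well, at 0.22 and -0.21, while the chromosomes shifted in ha against EF and in hr against EF were the same 8 and 4. The lowest window was that of Gxylt2, at -1.98, with 60% of its 5 genes below the autosome median. There Gxylt2 fell by 2.77 ± 0.21 (edgeR adjusted p = 0.000135). Next was chr15:1-5000000 at -1.09, with Selenop, the plasma selenium carrier gene, which fell by 4.86 ± 0.23, with 331 ± 37.4 CPM in ha and 11.4 ± 3.25 CPM in hr (edgeR adjusted p = 2.6e-05). The highest was chr19:15000001-20000000 at 0.72.

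The window of Yap1 went against Yap1 in experiment 2. Yap1 was at 1270 and 1250 CPM in EF, 196 and 185 CPM in ha and 1800, 1810, 1430 and 1410 CPM in hr. It fell by 2.73 ± 0.18 in ha against EF (edgeR adjusted p = 0.000122), while its window of 15 genes was at 0.84 (0.71 and 1.00 in ha 1 and 2) and shifted higher. The neighbouring apoptosis inhibitor genes Birc2 and Birc3 rose by 0.87 ± 0.12 and 2.27 ± 0.25 (edgeR adjusted p = 0.00151 and 0.000624). Against ha, hr had Yap1 higher by 3.08 ± 0.17 (edgeR adjusted p = 4.2e-05) and the window at -0.84. Against EF the window was at 0.06 in hr and Yap1 did not pass, at 0.35 ± 0.15 (edgeR adjusted p = 0.179). The EF libraries may be repeats of the same sample, as may hr libraries that share a first title number. These adjusted p-values may then not measure the spread between samples.

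Of 28 genes whose copy number often changes in tumours, such as Myc, Cdk4, Mdm2 and Ccnd1 (chosen as a list, not for their position), most did not pass in EFPrx1MSCLC against MSC and in hr against EF. In EFPrx1MSCLC 3 rose (Yap1, Met and Erbb2), 2 fell (Cdkn2a and Birc3), 22 did not pass and 1 was not tested. That is 11.1% higher and 7.41% lower of the 27 tested, against 7.7% and 12.1% of all genes, so the list lay near the background. Met, the hepatocyte growth factor receptor gene on chromosome 6, was at 429, 274, 298 and 191 CPM in EFPrx1MSCLC 219, 221, 225 and 229 and at 20.3, 3.48 and 7.57 CPM in MSC, and rose by 4.83 ± 0.70 (edgeR adjusted p = 0.00506). In hr against EF 0 rose, 1 fell (Cdk6), 24 did not pass and 3 were not tested. In ha against EF 4 of 25 tested rose (16.0%, against 23.0% of all genes) and 7 fell (28.0%, against 19.6%). The median log2 change of the list was -0.26 there, against 0.05 over all genes tested. There Ccnd1, the cyclin D1 gene on chromosome 7, fell by 3.09 ± 0.46, with 812 ± 17.1 CPM in EF and 95.5 ± 19.3 CPM in ha (edgeR adjusted p = 0.00206), well past the -0.30 of its chromosome. In hr against ha 7 of 25 rose (28.0%, against 17.9% of all genes) and 5 fell (20%, against 21.5%). The median of the list was 0.13 there, 0.35 in EFPrx1MSCLC against MSC and -0.05 in hr against EF, against 0.04 and 0.01 over all genes tested in the last 2 of these. The EF libraries may be repeats of the same sample, as may hr libraries that share a first title number. Calls in experiment 2 may then not measure the spread between samples.

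Each experiment had its own flowcell, and the effects of flowcell and experiment cannot be told apart, so levels across them are given side by side without a test. Offsets were as large on chromosomes not picked out: relative to MSC, chromosome 15 was at 0.45 in both EF libraries and 0.67 and 0.51 in ha, against 0.18 in EFPrx1MSCLC 221. Relative to the mean of MSC and over the 10992 genes counted in both, chromosome 4 was at -0.41 in both EF libraries, -0.38 and -0.56 in ha and -0.41, -0.41, -0.24 and -0.25 in the hr libraries, below all MSC libraries. On chromosome 7 the EF libraries were at -0.30 and -0.33 and the ha libraries at -0.57 and -0.70. EFPrx1MSCLC 221, whose number the titles of experiment 2 carry, was at -0.84 and -0.89 on these chromosomes. On chromosome 12 it was at -0.71, EF at -0.40 and -0.41 and ha at -0.01 and -0.18. Chromosomes 14 and 18 went the other way: EF was at -0.51 and -0.51 on 14 and at -0.47 and -0.42 on 18, where EFPrx1MSCLC 221 was at 0.19 and 0.34. On chromosome 18 ha was at 0.11 and 0.21 and hr 1-1, 1-2, 2-1 and 2-2 at -0.16, -0.18, 0.19 and 0.18. Chromosomes 14 and 18, on which ha and hr lay most above EF, were thus below MSC in EF.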

How the data were processed

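The values that the authors deposited are expected counts for each gene, from poly(A)-enriched RNA per the labels' protocols. The submitters' processing notes list STAR, RSEM and GRCm38.p6. Not given in the sources used here: tool versions, the annotation release and whether strand was used. Overlapping, antisense and near-identical genes are therefore uncertain. Counts were rounded (8.27% were not whole). Positions came from GENCODE M21 on GRCm38. Log2 CPM used TMM factors and a prior count of 2. Genes were tested with edgeR 4.0.16 (filterByExpr, minimum count 10; quasi-likelihood, two-sided, Benjamini-Hochberg over all genes tested, experiments fitted separately), DESeq2 1.42.0 being an alternative, on R 4.3.3 and Python 3.11.15. Windows were not tested: the members, chromosomes and lists were chosen with earlier results of these data known. Scripts were tested on simulated data. Named windows are the 5 highest and 5 lowest shifted ones per comparison and those of Yap1 and Cdkn2a. Named genes come from each window's called gene of highest mean CPM, its called gene of largest change with 10 CPM or more in the higher group, and 28 listed genes; genes at 0 in a whole group get no fold change. Deviations by title number had correlations of -0.01 to 0.01 between the groups of experiment 2. Those of EF and hr lie near counting noise, so this check cannot decide whether title numbers pair the libraries.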

Additional observations from a re-analysis of the deposited data

Results flagged for a closer look

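Chromosome 2 in EFPrx1MSCLC 219 was at 0.0246 relative to the mean of MSC, apart from the other 3 EFPrx1MSCLC libraries, which lay at 0.21 to 0.25. The gap took up 0.843 of the range of the 4 libraries, above the 95% limit of 0.829 for 4 values. Of 38 sets of 4 library values that were checked this way, 1 exceeded the limit, and chance gives about 1 in 20 for independent values. The hr libraries may be repeats in pairs, so this rate need not hold for sets of hr values.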

How the results depend on the processing

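The 85 shifted windows of EFPrx1MSCLC against MSC became 137 with library totals and no centring, 147 with means over genes and 32 with windows of 10 Mb, with 72 to 135 when 1 library was left out. The 55 of ha against EF became 120, 23 (10 Mb), 36 (10 genes or more) and 165 (size of 0.3 or more), with 56 to 74 when 1 library was left out. The 12 of hr against EF became 4 (10 Mb) and 63 (0.3), with 4 to 17, and lost most without hr 2-1 (4) or 2-2 (5). The 25 of hr against ha became 91, 1, 16 and 87 in the same order, with 23 to 37. Windows with few genes varied most: in ha against EF the SD was 0.50 with 5 to 9 genes and 0.27 with 25 or more. Genes called numbered 2887, 5961, 973 and 5517 in the 4 comparisons. DESeq2 called 4598 in the first and 1973 in hr against EF. Close libraries summed gave 736, 0 and 1272 in experiment 2. Leaving out 1 library gave 1219 to 5087, 3075 to 5479, 0 to 379 and 4514 to 5123, the highest of the first without MSC 202. With a replicate block on the title number the 3 comparisons of experiment 2 called 5232, 322 and 4686. Reversals among named windows were chr13:1-5000000 without EFPrx1MSCLC 221 (-0.00997, the lowest of -0.00997 to 1.48 when 1 library was left out) and chr3:15000001-20000000 with fewer genes (0.107, 0.0927 and 0.0791). Of the other values for chromosomes and windows, 644 moved by less than the spread between libraries and 124 by more. The cause of these moves was not tested.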
